A study of Homo sapiens with 9 samples.

Results

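The secreted matrix glycoproteins FN1, FBN1, EFEMP1, SPARC, FSTL1, THBS1, TNC and TGFBI and the matrix cross-linking enzymes LOX and LOXL2 were followed across 3 groups of HCC4006, an established human lung adenocarcinoma line whose epidermal growth factor receptor (EGFR) is mutated. The 10 genes were taken by symbol, and each had 1 row in the deposited table, so all 10 were measured among 30838 genes. Gene expression was measured on 9 Illumina arrays, 3 per group. One group was labelled parental, the resistant group spent 6 months in gefitinib, a blocker of the EGFR kinase, at rising doses, and the inhibitor group received over 6 months both gefitinib and SB431542, which blocks the type I TGFβ receptor kinase. The titles call the last group resistant as well, so whether SB431542 was added before or after resistance arose is not settled, nor is the presence of either compound at harvest. No group had SB431542 alone, none is labelled as kept in culture for the same time without gefitinib, and the labels do not say whether replicates were separate cultures, so p-values measure a spread between arrays that may be technical only.

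Cells secrete fibronectin, fibrillins and fibulins into fibrils and microfibrils that anchor them through integrins and that store latent TGFβ. Matricellular proteins such as SPARC, FSTL1, the thrombospondins and tenascin-C sit in this matrix without being its main scaffold, and they tune adhesion and growth factor signalling. Lysyl oxidases are copper enzymes that oxidise lysines of collagen and elastin so that the fibres become cross-linked. Many of these genes are known targets of TGFβ, and matrix production is a usual trait of epithelial cells that have taken on mesenchymal features.

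The 10 genes did not move as a block. LOX rose 3.76-fold in resistant cells and lay at the parental level in the inhibitor group. SPARC and FSTL1 rose 3.23-fold and 2.13-fold in resistant cells and were still 2.53-fold and 1.90-fold above parental cells in the inhibitor group. EFEMP1 and THBS1 fell in resistant cells, THBS1 with a call that 6 of 18 alternatives lost, and were higher in the inhibitor group than in either other group, THBS1 by 2.80-fold and EFEMP1 by 2.02-fold over resistant cells. TNC was lower in the inhibitor group than in resistant cells. TGFBI stayed above the 99th percentile of all values, FBN1 just above background, and FN1 and LOXL2 within background on every array.

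Intensities are on the authors' linear scale with the background left in. The 95th percentile of 377 olfactory receptor rows, genes not expected in this line, was 92.6 and stands for background. Values above the 99th percentile of the whole table, 5549, may be compressed. Differences between groups are differences of log2 means ± SE from limma over all 9 arrays, called at a Benjamini-Hochberg adjusted p under 0.05 over all 30838 genes. Words such as rose, fell, step and stayed describe differences between these separate groups and not an order in time. Arrays of one group correlated at 0.990 to 0.998, and the lowest values were those of inhibitor replicate 2, in which 54 genes deviated at least 2-fold from the other inhibitor arrays, against at most 3 in any other array. Of 8 epithelial and lung adenocarcinoma markers, all 8 were above background in every group, with a summed intensity of 16102 to 17972 in parental, 7505 to 7796 in resistant and 20965 to 26701 in inhibitor arrays. Single markers differed in course: EPCAM, KRT7, KRT19 and CDH1 were lowest in resistant and highest in inhibitor cells. KRT8 had means of 721, 1170 and 2025 in parental, resistant and inhibitor cells, and KRT18 317, 474 and 789. The lung markers stayed low with the inhibitor, NKX2-1 with 409, 180 and 155 and NAPSA with 1002, 98.8 and 94.2, the last close to background. Of 8 fibroblast markers, PDGFRA, PDGFRB, DCN, COL3A1 and TCF21 were at or under background in all groups, LUM and FAP were above it in resistant cells alone, and COL1A1 was slightly above it in all groups, with means of 99.5, 106.9 and 111 in parental, resistant and inhibitor cells. The sums of the 8 were 692 to 699.6 in parental, 871 to 884 in resistant and 709 to 733 in inhibitor arrays. Of 8 endothelial markers, CDH5, VWF, CLDN5, EMCN and ERG were at or under background in all groups, while the means of PECAM1 (100.9) and KDR (93.9) in parental and of TEK (93.6) in inhibitor cells lay just above it. The leukocyte markers PTPRC, CD3E, ITGAM and NKG7 were at or under background in all groups, but CD68, CSF1R and LYZ were above it in all 3. CD68 had means of 1034, 1489 and 1142 in parental, resistant and inhibitor cells, CSF1R 102.6, 143 and 198, and LYZ 104, 109 and 110.3. The summed endothelial markers ran from 680.4 to 701 over all arrays, and the summed leukocyte markers from 1555 to 1621 in parental, 2006 to 2122 in resistant and 1622 to 2119.7 in inhibitor arrays. The part of these epithelial, LUM, FAP, CD68 and CSF1R differences in the results below was not tested. In RNA from whole cultures, a change in the share of cells that express a gene and a change in its RNA per cell cannot be told apart.

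**Figure D1:**
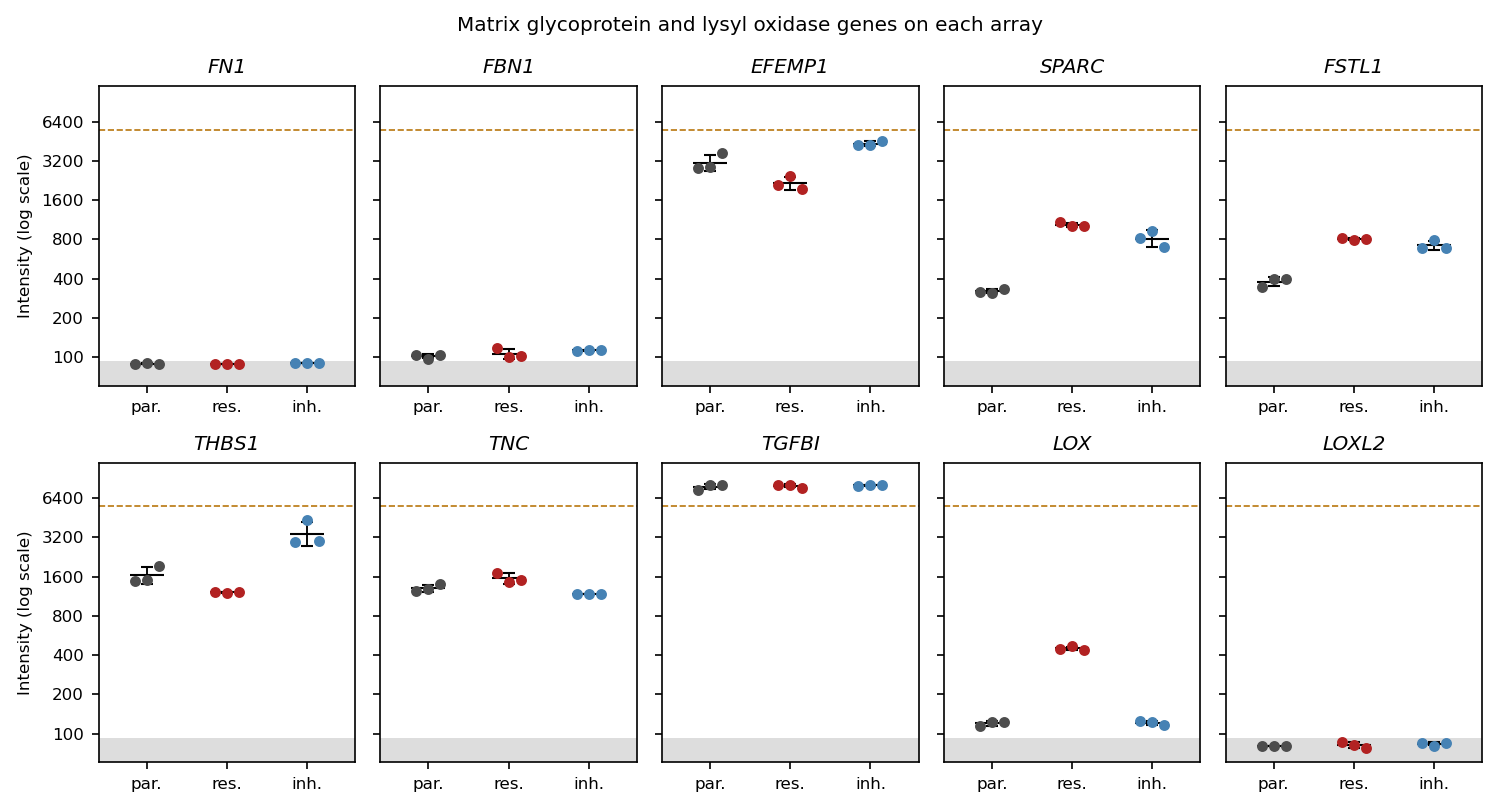
Intensity of the 10 genes on each array (y axis, log scale; par., res. and inh. are the parental, resistant and inhibitor groups; dots are arrays, bars the mean of log2 values with 1 SD, n = 3; grey band, background up to 92.6; dashed line, 5549, above which values may be compressed). LOX is high in resistant arrays alone, SPARC and FSTL1 are high in resistant and inhibitor arrays, and EFEMP1 and THBS1 are lowest in resistant and highest in inhibitor arrays; probes differ in brightness, so levels are to be compared within a panel.

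Fibronectin, encoded by FN1 (chromosome 2, GRCh38.p14 215360865 to 215436068), is the main adhesive glycoprotein of provisional matrix and a ligand of the integrin pair ITGA5 and ITGB1. Its row read between 88.1 and 89.8 on all 9 arrays, under the background level of 92.6. The sources used here do not give which transcripts the row's probes cover, so a level of FN1 RNA that these probes do not report remains unmeasured. Fibrillin-1, encoded by FBN1 (chromosome 15), builds the microfibrils that bind latent TGFβ. It read 103, 97.0 and 104 in parental arrays, 118, 100 and 102 in resistant arrays and 112, 113 and 112 in inhibitor arrays. All 9 values were above background by a small margin, and the inhibitor arrays lay above the parental ones and overlapped the resistant ones. No comparison passed, the nearest being inhibitor minus parental with 0.15 ± 0.06 (limma adjusted p = 0.108); it passed without resistant replicate 1 (adjusted p = 0.0479; range over 18 alternatives, 0.0479 to 0.351).

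EFEMP1 (chromosome 2), which encodes fibulin-3, a secreted glycoprotein of the elastic fibre family, was well above background throughout. It read 2801, 2854 and 3642 in parental arrays, 2103, 2428 and 1946 in resistant arrays and 4213, 4220 and 4577 in inhibitor arrays. The 3 groups did not overlap, with resistant arrays lowest and inhibitor arrays highest, and parental replicate 3 was the highest of its group. EFEMP1 fell by 0.52 ± 0.11 on the log2 scale in resistant cells (limma adjusted p = 0.00113). It rose by 1.01 ± 0.11 from resistant to inhibitor cells (adjusted p = 7.35e-07) and stood 0.49 ± 0.11 above parental cells there (adjusted p = 0.00254). These 3 calls held under all 18 alternatives, with the fall between -0.61 and -0.40 and the rise between 0.94 and 1.10.

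SPARC (chromosome 5), which encodes osteonectin, a collagen-binding matricellular protein, read 314, 311 and 335 in parental arrays. Resistant arrays read 1082, 1009.8 and 1010.4, and inhibitor arrays read 820.4, 928 and 694. All resistant arrays lay above all inhibitor arrays, and those above all parental arrays. SPARC rose by 1.69 ± 0.12 in resistant cells (limma adjusted p = 1.94e-09) and was 1.34 ± 0.12 above parental cells in the inhibitor group (adjusted p = 1.05e-07). The step from resistant to inhibitor cells, -0.35 ± 0.12, was at the threshold (adjusted p = 0.0481). That call was lost under 12 of 18 alternatives, among them the replicate block (adjusted p = 0.0800), cyclic loess scaling (adjusted p = 0.069), a fit on those 2 groups alone (adjusted p = 0.0748) and the omission of any 1 array other than inhibitor replicate 2 (adjusted p = 0.0526 to 0.227; range over all alternatives, 0.00246 to 0.227).

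FSTL1 (chromosome 3), which encodes follistatin-like 1, a secreted glycoprotein with a SPARC-like domain structure, read 347, 394 and 398 in parental arrays. It read 822, 797 and 803 in resistant arrays and 685, 792 and 689.9 in inhibitor arrays. Both gefitinib groups lay above every parental array. FSTL1 rose by 1.09 ± 0.11 in resistant cells (limma adjusted p = 3.51e-07) and was 0.93 ± 0.11 above parental cells in the inhibitor group (adjusted p = 5.58e-06). From resistant to inhibitor cells the difference was -0.16 ± 0.11 and did not pass (adjusted p = 0.409; 95% confidence interval, -0.40 to 0.07), although the arrays of these groups did not overlap.

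THBS1 (chromosome 15) encodes thrombospondin-1, which binds CD36, CD47 and integrins and can release TGFβ from its latent complex. It read 1492, 1501 and 1939 in parental arrays, 1223, 1190.2 and 1213 in resistant arrays and 2968, 4342 and 3021 in inhibitor arrays. The inhibitor arrays were all above the parental ones and these above the resistant ones, and inhibitor replicate 2, the array that stood apart, was the highest. THBS1 rose by 1.49 ± 0.14 from resistant to inhibitor cells (limma adjusted p = 1.12e-07) and by 1.05 ± 0.14 over parental cells (adjusted p = 1.25e-05). Without inhibitor replicate 2 these rises were 1.31 ± 0.11 and 0.88 ± 0.11 (adjusted p = 1.13e-09 and 1.07e-06; ranges over 18 alternatives, 1.13e-09 to 0.00033 and 1.07e-06 to 0.0024). The fall in resistant cells was smaller, -0.43 ± 0.14 (adjusted p = 0.0276). It did not pass when parental replicate 3 (-0.31, adjusted p = 0.184) or any 1 resistant array (adjusted p = 0.0738 to 0.0863) was omitted, when the variance prior had no trend (adjusted p = 0.0740) and with a floor at background (adjusted p = 0.0805; range over 18 alternatives, 0.00101 to 0.184).

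TNC (chromosome 9) encodes tenascin-C, an adhesion-modulating glycoprotein of developing and injured tissue and of tumour stroma. It read 1229, 1283 and 1397 in parental arrays, 1716, 1444 and 1498 in resistant arrays and 1180.1, 1173 and 1179.8 in inhibitor arrays. The groups did not overlap, and resistant replicate 1 was the highest array. TNC fell by 0.39 ± 0.11 from resistant to inhibitor cells (limma adjusted p = 0.0128), which no longer passed when resistant replicate 1 was omitted (-0.32, adjusted p = 0.101; range over 18 alternatives, 0.00312 to 0.101). The difference between resistant and parental cells, 0.25 ± 0.11, did not pass (adjusted p = 0.118) but passed when the variance prior had no trend, with either treatment of background and without inhibitor replicate 2 (adjusted p = 0.0283 to 0.0464; range over 18 alternatives, 0.0283 to 0.419). The inhibitor group differed from parental cells by -0.14 ± 0.11 (adjusted p = 0.477; 95% confidence interval, -0.37 to 0.08).

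TGFBI (chromosome 5), named for its induction by TGFβ, encodes an integrin-binding matrix protein. It read 7406, 8054 and 8062 in parental arrays, 8074, 8090 and 7707 in resistant arrays and 7989, 8069 and 8028 in inhibitor arrays. All 9 values overlapped and all were above 5549, where a change may be compressed. The differences were 0.02, 0.01 and 0.04 in resistant minus parental, inhibitor minus resistant and inhibitor minus parental cells, each ± 0.05 (limma adjusted p = 0.865, 0.923 and 0.784). The 95% confidence intervals ran from -0.10 to 0.15 at the widest, on the scale as deposited.

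LOX (chromosome 5, GRCh38.p14 122063195 to 122078259), the founding lysyl oxidase, had the largest difference among the 10 genes in both resistant minus parental and inhibitor minus resistant cells. It read 114, 122 and 122 in parental arrays, 446, 465 and 436 in resistant arrays and 124, 122 and 117 in inhibitor arrays. Resistant arrays lay far above the others, while parental and inhibitor arrays overlapped. LOX rose by 1.91 ± 0.07 in resistant cells (limma adjusted p = 3.08e-13) and fell by 1.89 ± 0.07 from resistant to inhibitor cells (adjusted p = 8.83e-13). Parental and inhibitor cells differed by 0.02 ± 0.07 (adjusted p = 0.932; 95% confidence interval, -0.14 to 0.17). Because its low groups lay near background, the fold depended on how background was treated: with the median of the olfactory receptor rows subtracted, the rise was 3.41 ± 0.14 (10.6-fold, adjusted p = 1.96e-07; range over 18 alternatives, 1.7e-16 to 2.41e-07) and the fall -3.36 ± 0.14 (10.2-fold, adjusted p = 4.01e-07; range over 18 alternatives, 5.07e-15 to 4.33e-07).

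LOXL2 (chromosome 8), a lysyl oxidase with scavenger receptor domains, read between 77.1 and 85.9 on all 9 arrays, within background. The largest of its 3 differences, 0.05 ± 0.04 between inhibitor and parental cells, did not pass (limma adjusted p = 0.484), and values at this level have no usable order.

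**Figure D2:**
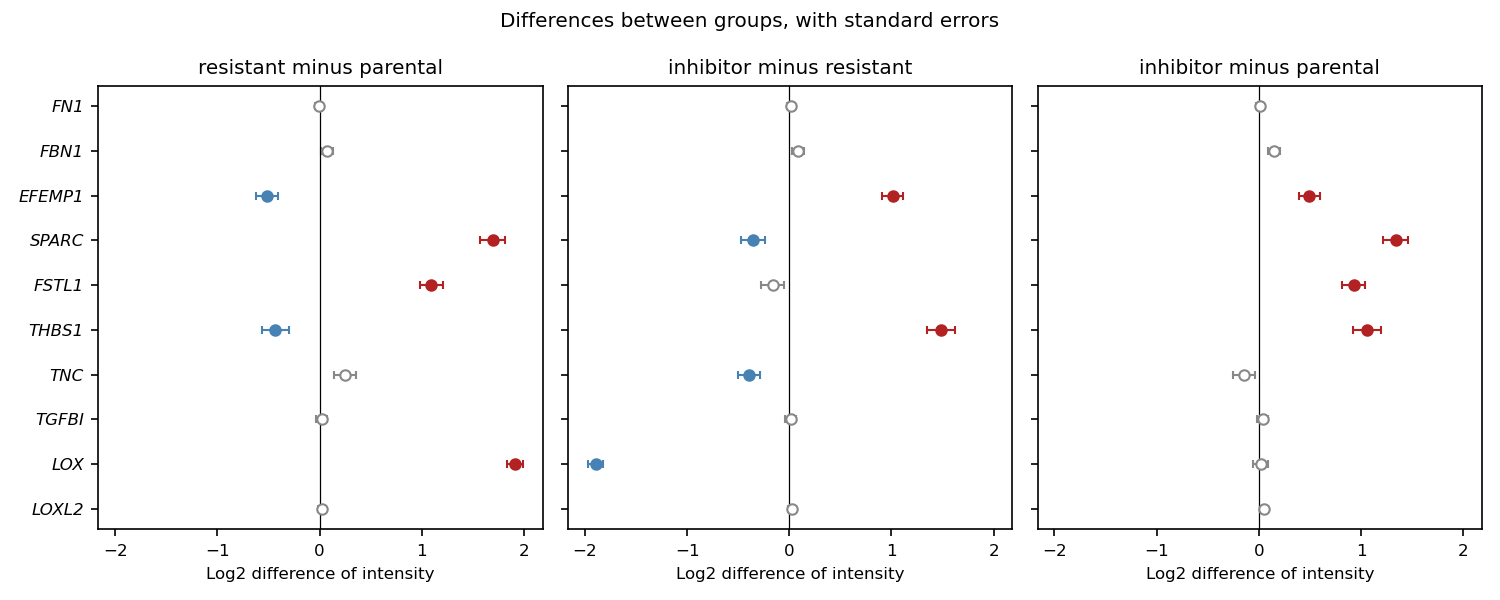
Log2 difference of intensity for the 10 genes in the 3 comparisons (x axis; dots are differences of group means, bars 1 SE; red, called higher; blue, called lower; open grey, not called). LOX is 1.91 higher in resistant than in parental cells and 1.89 lower in inhibitor than in resistant cells. EFEMP1 and THBS1 are lower in resistant than in parental cells and higher in inhibitor than in resistant cells. EFEMP1, SPARC, FSTL1 and THBS1 are called above parental cells in the inhibitor group.

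In counts, 3 of the 10 genes rose in resistant cells, 2 fell and 5 were not called, where 20.4% of all genes were called (10.2% higher and 10.2% lower). From resistant to inhibitor cells 2 rose, 3 fell and 5 were not called, against 17.5% of all genes (8.66% higher and 8.79% lower). Between inhibitor and parental cells 4 were higher and none was lower by limma, against 14.9% of all genes (7.1% higher and 7.79% lower). At an unadjusted p under 0.05, 5 were higher, with FBN1 added, and 0 were lower. The shares over all genes include many genes at background. Only 52.9% of all genes had a mean above it in at least 1 group, while 8 of the 10 were above it on every array. Among the 16321 genes above it in at least 1 group, fitted alone, 6821, 5936 and 5144 were called in the 3 comparisons, in the same order. The median difference of the 10 genes was 0.05, 0.02 and 0.10 in these comparisons, beside 0.0045, -0.00079 and 0.0045 over all genes. The 2 that fell in resistant cells became 1, EFEMP1, under the 6 alternatives named above that lost the THBS1 call. The 3 that fell from resistant to inhibitor cells became 2, TNC and LOX, under most alternatives, through loss of the SPARC call. Without resistant replicate 1 they became 1, LOX. Each comparison shares a group with the other 2, so a gene that was high or low in resistant arrays moves in opposite directions in the first and second comparison by construction.

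The promoters of LOX, SPARC, FSTL1 and THBS1 are shown because these genes had the largest differences and moved in different ways. The RefSeq-derived promoter table (GRCh38.p14) held 8 of the 10 genes, all but EFEMP1 and LOXL2, and LOX had 3 annotated starts, of which the outermost is shown. Each line is the 250 bases before the start, 5′ to 3′ on the gene's strand. Capitals mark a match, on either strand, to CAGAC (or GTCTG), the core bound by SMAD proteins that carry the TGFβ signal, or to GGAATG (or CATTCC), the element bound by TEAD factors, the DNA-binding partners of YAP. The windows are chr5:122078260-122078509 (minus strand) for LOX, chr5:151686916-151687165 (minus strand) for SPARC, chr3:120450993-120451242 (minus strand) for FSTL1 and chr15:39580829-39581078 (plus strand) for THBS1.
LOX: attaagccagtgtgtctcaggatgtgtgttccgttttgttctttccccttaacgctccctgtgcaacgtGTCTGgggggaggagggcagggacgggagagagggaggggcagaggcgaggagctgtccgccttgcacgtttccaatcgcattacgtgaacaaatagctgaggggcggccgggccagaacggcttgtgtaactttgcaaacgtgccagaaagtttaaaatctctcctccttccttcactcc
SPARC: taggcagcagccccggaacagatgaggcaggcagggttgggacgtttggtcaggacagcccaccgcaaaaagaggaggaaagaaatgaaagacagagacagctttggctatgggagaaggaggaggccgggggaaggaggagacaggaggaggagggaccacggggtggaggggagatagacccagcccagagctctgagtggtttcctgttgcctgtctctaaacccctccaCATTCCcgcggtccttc
FSTL1: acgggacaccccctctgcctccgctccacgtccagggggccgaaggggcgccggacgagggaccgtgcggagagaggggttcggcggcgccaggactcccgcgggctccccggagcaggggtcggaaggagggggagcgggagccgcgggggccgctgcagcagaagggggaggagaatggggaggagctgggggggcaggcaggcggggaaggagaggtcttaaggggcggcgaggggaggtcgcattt
THBS1: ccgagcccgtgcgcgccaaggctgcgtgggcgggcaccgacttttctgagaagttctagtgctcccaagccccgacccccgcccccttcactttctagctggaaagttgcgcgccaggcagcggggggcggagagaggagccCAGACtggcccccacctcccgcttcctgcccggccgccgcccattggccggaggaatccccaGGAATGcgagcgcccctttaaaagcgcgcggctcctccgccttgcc

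The LOX window held 1 SMAD core, starting 181 bases before the start. SPARC held 1 TEAD element at 17 bases, FSTL1 held neither, and THBS1 held a SMAD core at 108 bases and a TEAD element at 46. Of the other windows, FBN1 held 1 TEAD element, TNC 1 SMAD core, and FN1 and TGFBI neither. The FBN1 window lay before an inner start, inside the gene's span, and not before its outermost start. No window of these 8 genes held the AP-1 element TGANTCA, and the E-box CACCTG (or CAGGTG), bound by ZEB and SNAI repressors, was found at the 2 inner LOX starts alone, whose windows overlap. Over all 35116 windows in the table, 38% held the SMAD core, 11.9% the TEAD element, 17.5% the E-box and 6.57% the AP-1 element. A match describes letters in a window and not binding.

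Genes outside the 10 with the most similar course were taken by the smallest Euclidean distance between centred log2 values over the 9 arrays, among 16313 genes above background in at least 1 group. Nearest to LOX were C1ORF94 (distance 0.33), the synaptic vesicle gene SNAP91 (0.34) and the tumour necrosis factor ligand gene CD70 (0.37). CD70 read 103 ± 4.62 in parental, 413 ± 31.9 in resistant and 93.9 ± 2.53 in inhibitor arrays (SD, n = 3). Nearest to SPARC were C3ORF59 (0.28), the interleukin-7 receptor gene IL7R (0.44) and OLFML2A (0.46), and nearest to FSTL1 were the focal adhesion gene ZYX (0.25), the actin-binding gene COTL1 (0.31) and C1QTNF6 (0.31). Nearest to EFEMP1 were the desmosomal cadherin gene DSC2 (0.28), C14ORF4 (0.35) and APLP2 (0.36), and nearest to THBS1 were NT5DC2 (0.38), the opsin gene OPN3 (0.40) and the netrin gene NTN4 (0.40). DSC2 read 397 ± 15.4, 273 ± 17.3 and 546 ± 8.40 in the 3 groups in the same order.

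Other genes of matrix assembly, cross-linking and adhesion were read from 5 lists of 81 genes in all. Over all 30838 genes, 20.4% were called in resistant minus parental, 17.5% in inhibitor minus resistant and 14.9% in inhibitor minus parental cells. In at least 1 group, 52.9% of all genes had a mean above background. That held for 12 of 16 elastic fibre genes, 14 of 16 enzymes, 12 of 22 glycoproteins, 10 of 15 receptors and 7 of 12 proteoglycans. Among 16 elastic fibre and microfibril genes, 6 rose and 3 fell in resistant cells, and 4 rose and 5 fell from resistant to inhibitor cells (medians -0.02 and 0.04). The fibulin gene FBLN2 rose from 104 ± 3.80 in parental to 402 ± 23.0 in resistant cells (1.95 ± 0.08, limma adjusted p = 7.6e-13) and fell to 130.1 ± 11.1 with the inhibitor (-1.63 ± 0.08, adjusted p = 2.04e-11). The fibrillin gene FBN2 went from 242 ± 15.9 to 848 ± 24.5 and 304 ± 10.6, a rise of 1.81 and a fall of 1.48. Both were called above parental cells in the inhibitor group, by 0.32 and 0.33, but the FBLN2 call was lost without inhibitor replicate 1 (adjusted p = 0.0535, the highest of 18 alternatives) and the FBN2 call under 5 alternatives: the replicate block and the omission of parental replicate 1 or 2 or inhibitor replicate 1 or 3 (highest adjusted p of 18 alternatives, 0.118). EFEMP2, which encodes fibulin-4, rose by 0.85 in resistant cells and lay under background in inhibitor arrays, at least 2.18-fold below resistant cells. The latent TGFβ binding protein gene LTBP2 rose from resistant to inhibitor cells by 1.23 and was 1.69 above parental cells, whereas FBLN1 was 0.67 lower in resistant and 1.34 lower in inhibitor than in parental cells. A fold written as at least N compares the brighter group with the background level where the dimmer group was at or under it on every array. Between inhibitor and parental cells 6 genes of this list were higher and 3 lower, with LTBP3 at 0.70 (0.46 without inhibitor replicate 2) and the microfibril gene MFAP2 at 0.39.

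How background was treated set the size of many of these differences, as for LOX. The genes named from the 5 lists had 82 called differences, and 40 of them, in 18 genes, grew by over 1.5 times when the median of the olfactory receptor rows was subtracted. In the elastic fibre list the FBLN2 rise became 4.06, its fall -2.85 and its difference between inhibitor and parental cells 1.21. The EFEMP2 rise became 2.13, LTBP2 was 2.04 above resistant and 3.40 above parental cells, and MFAP2 was 1.00 above parental cells. Values after subtraction had a floor at 16, so the size for a gene with a group at or near background rests on that floor.

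Among 16 cross-linking and collagen-processing enzymes, 5 rose and 3 fell in resistant cells, and 3 rose and 5 fell from resistant to inhibitor cells (medians 0.12 and -0.07). LOXL1, the elastin-directed lysyl oxidase, read 163 ± 6.18 in parental, 434 ± 54.0 in resistant and 162 ± 18.5 in inhibitor cells. It rose by 1.41 ± 0.10 (limma adjusted p = 2.95e-09) and fell by 1.42 ± 0.10 (adjusted p = 4.5e-09), and its inhibitor and parental groups differed by -0.01 ± 0.10 (adjusted p = 0.961). LOXL4 had another course, with 218 ± 16.1, 169.9 ± 6.10 and 138 ± 9.99 in the 3 groups, a fall of 0.36 in resistant cells and a further fall of 0.30 with the inhibitor, which did not pass without resistant replicate 3 (adjusted p = 0.0624, the highest of 18 alternatives). LOXL3 was close to background and not called in any comparison, with means from 88.8 to 92.5. The procollagen protease enhancer gene PCOLCE2 rose by 1.22 in resistant cells and was 0.96 lower with the inhibitor. The prolyl 3-hydroxylase gene P3H1 rose by 0.91 in resistant cells and fell by 1.04 with the inhibitor. The transglutaminase gene TGM2, whose product cross-links fibronectin, read 206 ± 19.5 in parental, 470.4 ± 24.3 in resistant and 1226 ± 281 in inhibitor cells. TGM2 was 1.19 higher in resistant than in parental cells and 1.36 higher in inhibitor than in resistant cells. The procollagen protease gene BMP1 rose by 1.10 from resistant to inhibitor cells. The collagen prolyl hydroxylase gene P4HA1 fell by 0.98 in resistant cells and was 0.66 higher with the inhibitor than in resistant cells. PLOD2 was 0.73 lower in inhibitor than in parental cells. Between these groups 3 enzymes were higher and 3 lower. With background subtracted, LOXL1 rose by 2.16 and fell by 2.20, LOXL4 fell by 0.64 and 0.68, and P3H1 fell by 1.84.

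Among 22 other matricellular and adhesive glycoproteins, 8 rose and 3 fell in resistant cells, and 2 rose and 5 fell from resistant to inhibitor cells (medians 0.05 and -0.02); without resistant replicate 1, 1 rose. Periostin (POSTN) and thrombospondin-2 (THBS2) were within background in parental and inhibitor cells and read 203 ± 12.3 and 171 ± 9.63 in resistant cells, at least 2.19-fold and 1.84-fold above both (limma adjusted p at most 1.56e-10). The basement membrane gene NID2 was called higher in resistant than in parental cells and was at least 1.73-fold below resistant cells in the inhibitor group. The IGF-binding glycoprotein gene IGFBP7 rose by 2.29 in resistant cells and was 2.73 above parental cells with the inhibitor. The follistatin-like gene FSTL3 rose by 1.43 and was 1.32 above parental cells with the inhibitor, and MATN2 was 0.79 above. CTHRC1 fell by 1.32 and rose by 0.81, to 0.52 below parental cells, where 3 genes of the list were higher and 3 lower. With background subtracted, FSTL3 was 2.61 above parental cells in the resistant and 2.46 above in the inhibitor group.

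Among 15 receptors of these glycoproteins, 1 rose and 4 fell in resistant cells, and 4 rose and 1 fell from resistant to inhibitor cells (medians -0.03 and 0.09). The 1 that rose became 2 without inhibitor replicate 2, with background subtracted or when the variance prior had no trend. The gene higher in the first and lower in the second of these comparisons was ITGA5, the fibronectin receptor subunit. ITGA5 read 145 ± 16.8, 392 ± 32.2 and 252 ± 28.9 in parental, resistant and inhibitor cells (1.44 ± 0.11 and -0.64 ± 0.11, limma adjusted p = 5.53e-09 and 0.000258). ITGAV, a subunit of receptors for fibronectin, tenascin-C and latent TGFβ, went the other way, with 1187 ± 67.2, 501 ± 21.3 and 1214 ± 246 (-1.24 and 1.26), and ITGB6 followed with -0.89 and 1.75. The syndecan gene SDC1 fell by 1.06 in resistant cells and was 0.69 below parental cells in the inhibitor group. Its rise from resistant to inhibitor cells, 0.37 (limma adjusted p = 0.04996), was lost under 14 of 18 alternatives (highest adjusted p, 0.209). ITGB5 rose by 0.62 from resistant to inhibitor cells. Its fall in resistant cells, -0.28 (limma adjusted p = 0.036), was lost under 8 of 18 alternatives (highest adjusted p, 0.173). The ITGB5 difference between inhibitor and parental cells, 0.34 (adjusted p = 0.013), was lost without parental replicate 1 or inhibitor replicate 1 (highest adjusted p of 18 alternatives, 0.0884). Between inhibitor and parental cells 4 receptors were higher and 1 lower. With background subtracted, the ITGB6 fall became -2.51 and its rise 3.84, and ITGA5 rose by 2.40.

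Among 12 matrix proteoglycans, 3 rose and 3 fell in resistant cells, and 1 rose and 4 fell from resistant to inhibitor cells (medians 0.0041 and -0.02). Without inhibitor replicate 1, 2 rose. The testican gene SPOCK1 rose by 2.51 in resistant cells, from 318 to 1811, and stayed 1.99 above parental cells with the inhibitor; its fall between those groups, 0.52 on the log2 scale, did not pass when resistant replicate 1 was omitted (limma adjusted p = 0.0652, the highest of 18 alternatives). The lumican gene LUM, also on the fibroblast marker list, was within background in parental cells and at least 2.39-fold above it in resistant cells. In inhibitor cells LUM was 1.30 lower than in resistant cells. Fibromodulin (FMOD) fell by 1.43 in resistant cells and was 1.47 below parental cells in the inhibitor group. Versican (VCAN) fell by 0.78 and rose by 1.29, and biglycan (BGN) was lowest in inhibitor cells, at least 1.28-fold below resistant cells. Between inhibitor and parental cells 3 were higher and 2 lower. One of these, AGRN, had a difference of 0.63 (adjusted p = 0.0344) that was lost under 10 of 18 alternatives (highest adjusted p, 0.166) and was 0.29 without inhibitor replicate 2. With background subtracted, the FMOD fall became -3.30, with the resistant arrays at the floor.

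**Figure D3:**
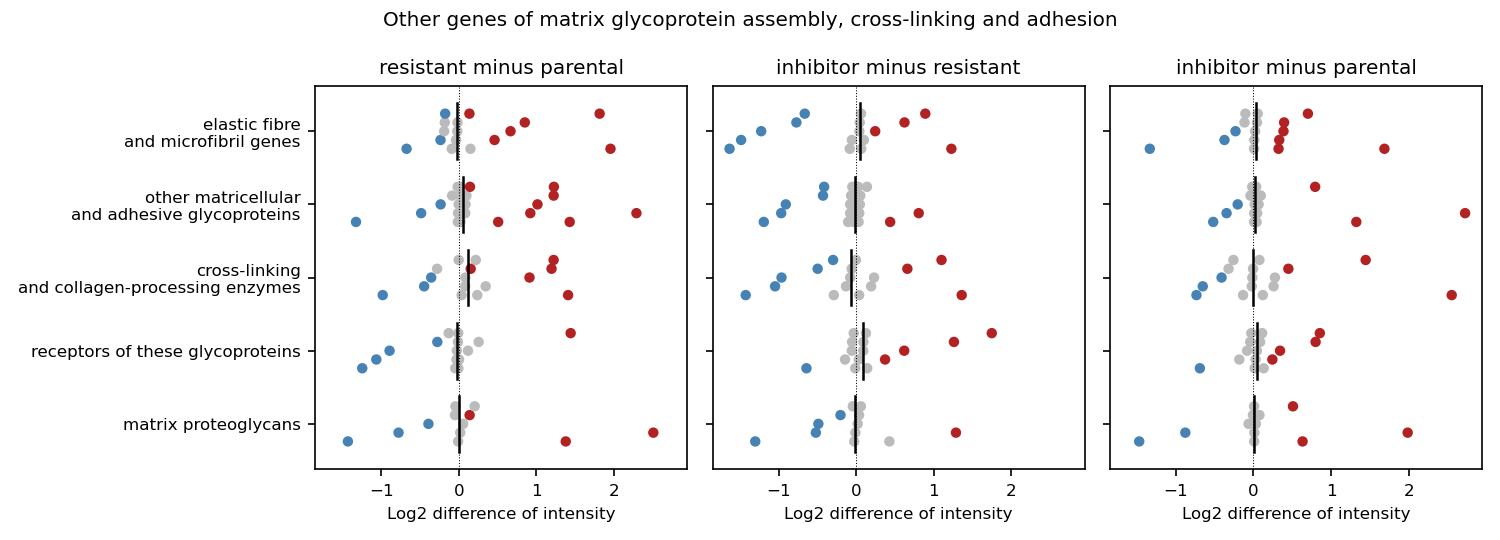
Log2 difference of intensity for 81 other genes of matrix assembly, cross-linking and adhesion in the 3 comparisons (x axis; each dot is a gene; red, called higher; blue, called lower; grey, not called; vertical bars, list medians). List medians lie between -0.07 and 0.12 in every panel, while single genes reach 2.73 (IGFBP7, inhibitor minus parental) and -1.63 (FBLN2, inhibitor minus resistant).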

How the data were processed

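Total RNA of 9 HCC4006 samples was labelled with biotin and hybridised to Illumina arrays, per the labels' protocols. The authors deposited 1 intensity per row and array. The sorted values of the arrays differed from their mean by at most 0.018 on the log2 scale, and medians were 91.1 to 91.3. The deposited intensities therefore appear to be already quantile-normalized. The lowest value was 72.65, so a background level remained in the values. Both points are read from the values and not from the labels. Neither the software nor the summary of probes into rows is named in the labels.

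Of 34687 rows, 3270 named by a UniGene cluster alone were left out. Symbols were updated through RefSeq names of assembly GRCh38.p14: 17585 rows matched a current symbol, 2669 a gene number and 2203 an older symbol, and 8960 kept their name. The row with the highest mean was used for 564 genes with several rows, leaving 30838 genes. Values were taken to log2 (a floor of 16 changed none) and tested with limma 3.58.1 under R 4.3.3, using a group-means design, eBayes with an intensity trend, and Benjamini-Hochberg adjustment over all genes; the fit was first tested on simulated data. Intensities are mean ± SD of 3 arrays. The number of arrays limits the precision.

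The 10 genes and the lists were chosen with earlier results of these data known, so no list was tested as a set. One leukocyte marker is not reported here and is left out of the summed markers. Named list genes are at most 4 called genes with the largest difference per list and comparison; LOXL3 and LOXL4 were named as family members of LOX, and some genes were described in a comparison after their values were seen. Alternatives were another variance prior, a replicate block, a floor, background subtraction, cyclic loess, other row and gene sets, a fit per pair of groups, and each array left out in turn. Figures were drawn with matplotlib 3.10.9.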

Additional observations from a re-analysis of the deposited data

How the results depend on the processing

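Across 18 alternatives, the calls for LOX, EFEMP1 and FSTL1, the rises of SPARC over parental cells and the rises of THBS1 in the inhibitor group kept their direction and stayed past the threshold. Of 522 values of the 10 genes under alternatives, 487 kept direction and side of the threshold, 19 lost a call, 5 gained one and 11 changed sign, none of them called. The sign changes were all in differences near 0. With cyclic loess they were TGFBI in resistant minus parental (-0.0048) and LOX in inhibitor minus parental cells (-0.0037). The others came when 1 array was left out, with these ranges: in resistant minus parental cells FN1 -0.012 to 0.00026, FBN1 -0.0051 to 0.11, TGFBI -0.019 to 0.045 and LOXL2 -0.014 to 0.064; in inhibitor minus resistant cells TGFBI -0.0096 to 0.025 and LOXL2 -0.012 to 0.065; in inhibitor minus parental cells TGFBI -0.0053 to 0.056 and LOX -0.012 to 0.044. The count of genes called lower in resistant cells was 1 when the variance prior had no trend and 1 with a floor at background, and ran from 1 to 2 when 1 array was left out. The count called lower from resistant to inhibitor cells ran from 1 to 3 when 1 array was left out. It was 2 with the replicate block, with cyclic loess, with all rows kept and with a fit per pair of groups. The floor at background and background subtraction left rows that were constant at the floor untested, FN1 and LOXL2 among them, and the filter on dim genes removed these as well, so those alternatives gave no value for them. Replicate numbers showed no sign of pairing in the values: deviations from the group mean correlated at -0.198 to 0.030 between same-numbered arrays and at -0.172 to 0.228 between others. Whether same-numbered samples were handled together is not settled by this, and the labels state no pairing. With the replicate block, 5940, 4948 and 4234 genes were called in the 3 comparisons, against 6300, 5383 and 4593 without it, and among the 10 genes it moved the SPARC call in inhibitor minus resistant cells alone (adjusted p = 0.0800). Signal over background limits FN1, FBN1 and LOXL2, which lay at or near it.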
